A study of Homo sapiens with 8 samples.

Results

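The PYHIN genes and the SP100 nuclear body genes were examined in Molm13 and THP1 cells after knockdown (KD) of PRMT9, an arginine methyltransferase. The members were 9 genes chosen by symbol: the PYHIN genes IFI16, AIM2, PYHIN1 and MNDA, the SP100 family genes SP100, SP110, SP140 and SP140L, and PML. All 9 were found among the 57992 genes of the Molm13 table, and the same identifiers were read from the 58174 genes of the THP1 table. Molm13 and THP1 are established human acute myeloid leukemia (AML) lines that carry MLL (KMT2A) fusions. Bulk polyA RNA-seq was done on 4 groups of 2 libraries, 8 in all: Molm13 shCtrl, Molm13 shPRMT9, THP1 shCtrl and THP1 shPRMT9. The shRNAs were doxycycline-inducible, and both the shCtrl and the shPRMT9 cells of both lines were under Dox induction. The labels give the genotype of shCtrl cells as WT, and the length of induction for these libraries is not given in the sources used here. Numbers 1 and 2 were read as replicates. The sources do not say whether they were separate cultures or separate hairpins, so p-values measure only the spread between these libraries, which may be technical.

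PYHIN proteins carry a pyrin domain and, in most members, a HIN domain that binds DNA. AIM2 detects DNA in the cytosol and assembles an inflammasome, while IFI16 binds viral and damaged DNA in the nucleus and the cytosol. SP100 and PML are the classical components of PML nuclear bodies, and the SP100 family proteins carry a SAND domain and, for most, a bromodomain. Many genes of both families are known interferon-stimulated genes (ISGs). The comparison asks whether KD of PRMT9 changed these genes in AML cells.

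Library totals ranged from 18720950 to 27356870 counts. PRMT9 had 332 and 289 counts in Molm13 shCtrl and 41 and 56 in shPRMT9 (log2 fold change -2.68, SE 0.14). The THP1 counts were 317 and 352 in shCtrl and 60 and 68 in shPRMT9 (-2.29, SE 0.13), so the targeted gene was lower in all 4 KD libraries. The THP1 library names also carry the letters OCI, and the identity of the line was not tested. The monocytic marker LYZ had 48446 to 79446 counts in THP1 and 12423 to 21516 in Molm13. MEIS1, a homeobox gene typical of MLL-rearranged AML, had only 4 to 9 counts in the THP1 libraries against 1452 to 1811 in Molm13. CD14, a monocyte surface receptor, had 4 to 8 counts in Molm13. In THP1 its mean level was 0.901 CPM in shCtrl and 4.76 CPM in shPRMT9 (log2 fold change 2.40, SE 0.21; edgeR FDR 3.73e-10). CD3D and CD3E, which mark T cells, had 0 to 3 counts in all libraries, and the B cell gene MS4A1 had 0 or 1. Of the same marker lists, NCAM1, an adhesion molecule of NK cells, had 3780 to 4213 counts in Molm13 and 3873 to 4861 in THP1, and PAX5, a B cell transcription factor, had 741 to 866 in Molm13 and 64 to 298 in THP1. NCAM1 made up nearly all of the summed CPM of the 6 T and NK cell markers, which was 198 to 205 in Molm13 and 158 to 183 in THP1. The 6 B cell markers summed to 39.5 to 43.1 CPM in Molm13 and 4.57 to 14.7 in THP1.

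The 4 PYHIN genes lie side by side on chromosome 1 of hg38. MNDA (ENSG00000163563) spans chr1:158831317-158849506, PYHIN1 (ENSG00000163564) chr1:158930796-158977054 and IFI16 (ENSG00000163565) chr1:158999968-159055155, all on the plus strand. AIM2 (ENSG00000163568) follows on the minus strand at chr1:159062484-159147096. The SP100 family is a second cluster, on chromosome 2. SP110 (ENSG00000135899) spans chr2:230167293-230225729 on the minus strand. SP140 (ENSG00000079263, chr2:230203110-230313215), SP140L (ENSG00000185404, chr2:230327184-230403732) and SP100 (ENSG00000067066, chr2:230415942-230544090) are on the plus strand. PML (ENSG00000140464) is alone on chromosome 15, at chr15:73994673-74047812 on the plus strand. GENCODE lists all 9 as protein coding, with 3 transcripts for MNDA and up to 22 for PML.

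Promoters were read for 8 of the 9 members from RefSeq (GRCh38.p14), from 250 bases before to 50 bases after the start; PML was not matched. They were searched on both strands for 2 elements through which interferon acts on genes. The interferon-stimulated response element (ISRE) was searched as GAAA, any 2 bases, GAAA, and the gamma-activated site (GAS) as TTC, any 3 bases, GAA. An ISRE match was present in 2 members, AIM2 and MNDA, and in 3.57% of all 35116 promoters. A GAS match was present in 1 member, SP110, and in 7.66% of all promoters. The 100 bases around each match are shown because these are the only members with a match, read 5′ to 3′ on the strand of the gene, with the match in capitals.
AIM2, chr1:159076902-159077001, minus strand: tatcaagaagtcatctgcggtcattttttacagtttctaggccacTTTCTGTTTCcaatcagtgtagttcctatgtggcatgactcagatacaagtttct
MNDA, chr1:158831221-158831320, plus strand: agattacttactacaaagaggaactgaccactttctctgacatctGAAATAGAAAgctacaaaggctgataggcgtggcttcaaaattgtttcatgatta
SP110, chr2:230219968-230220067, minus strand: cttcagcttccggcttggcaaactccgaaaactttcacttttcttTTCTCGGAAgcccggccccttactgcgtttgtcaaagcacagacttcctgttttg
The match in AIM2 is on the strand opposite to the gene. RefSeq starts can differ from the outermost starts in the table, and other starts of these genes were not searched. No match was found in IFI16, PYHIN1, SP100, SP140 or SP140L, which says only that these letters are not in these windows.

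Of the 6 members above 1 RPKM, all but MNDA rose on PRMT9 KD in both lines. IFI16, SP100, SP110, SP140L and PML were higher in every shPRMT9 library than in every shCtrl library of the same line. In Molm13 the scaled values of SP140 separated too, at 4 to 7 counts, although both groups hold a library with 5 counts. The share of all genes without overlap was not counted, so separation is only a description, here and below. MNDA fell in Molm13 and rose in THP1. AIM2, PYHIN1 and SP140 were near the detection limit in both lines. A differentially expressed gene (DEG) needed a false discovery rate (FDR) below 0.05 in the quasi-likelihood test of edgeR, adjusted by the Benjamini-Hochberg method, a fold change above 1.5 or below 0.667, and more than 1 RPKM (reads scaled by exon length and library size) in at least 1 library. In Molm13, 5 of the 9 members were DEGs upward and 1 downward, where 11.4% of the 16446 genes tested were DEGs upward and 11.3% downward. Of these 5, SP110 passed the RPKM minimum only through 1 shPRMT9 library, so its call there depends on the group where it is high. In THP1, 6 of the 9 were DEGs upward and 0 downward, where 3.83% and 2.39% of 16294 genes were. Filtering on low counts kept 7 members in Molm13, without AIM2 and SP140, and all 9 in THP1. IFI16, SP110 and PML belong to a KD signature that the study drew from these same libraries, so their direction here is not independent evidence. In these bulk samples, fewer cells of a type and less RNA per cell cannot be told apart.

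**Figure D1:**
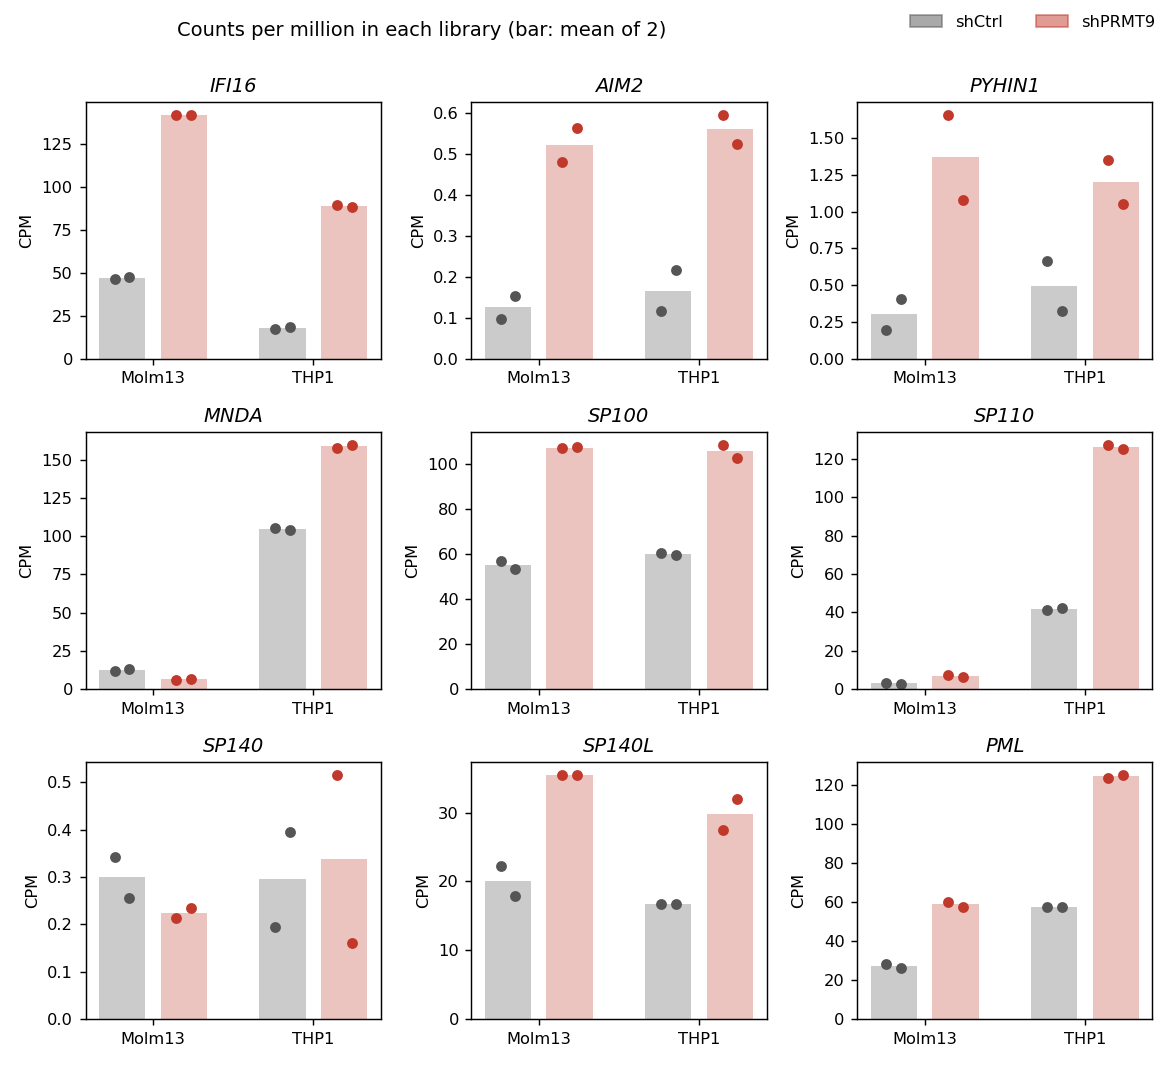
Counts scaled to library size (CPM) of each member in each library, on a linear axis that starts at 0 and differs between panels. Points are single libraries and bars the mean of 2 libraries of shCtrl (grey) or shPRMT9 (red). IFI16, SP100, SP110, SP140L and PML are higher in both KD libraries of both lines, MNDA is lower in the Molm13 KD libraries and higher in the THP1 KD libraries, and the SP140 points of THP1 overlap.

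IFI16 had the largest fold change of the members that were DEGs, in both lines. In Molm13 it had 951 and 930 counts in shCtrl and 2654 and 3020 in shPRMT9. Scaled to library size (CPM, with TMM library sizes), that is 47.1 ± 0.676 (SD, n = 2) against 142 ± 0.0150 CPM (n = 2), a 3.02-fold rise (log2 fold change 1.59, SE 0.04; edgeR FDR 3.86e-32). The means were far apart and the groups did not overlap. An SD of 2 values is itself uncertain, and the very small one of shPRMT9 is not a measure of precision. In THP1 the counts were 449 and 520 in shCtrl and 2257 and 2194 in shPRMT9. The level went from 18.1 ± 0.835 to 89.0 ± 0.892 CPM (n = 2 each), a 4.91-fold rise (2.29, SE 0.06; edgeR FDR 1.55e-22). THP1 started lower and ended lower than Molm13, with the larger fold.

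MNDA, the myeloid nuclear differentiation antigen, moved in opposite directions in the 2 lines. In Molm13 it had 243 and 261 counts in shCtrl and 114 and 144 in shPRMT9. It went from 12.6 ± 1.02 to 6.43 ± 0.475 CPM (n = 2 each), and its log2 fold change was -0.97 (SE 0.11; edgeR FDR 4.04e-10). The THP1 libraries had 2699 and 2897 counts in shCtrl and 3970 and 3972 in shPRMT9. It went from 105 ± 0.804 to 159 ± 1.65 CPM (n = 2 each), a 1.52-fold rise (0.60, SE 0.04; edgeR FDR 2.71e-13). Neither pair of groups overlapped. The THP1 fold was just over the 1.5 limit, and with library size alone in place of TMM its log2 fold change was 0.57, under the limit. The summed CPM of 13 markers of monocytic AML was higher in the KD libraries of both lines beside it, from 1548 and 1556 to 2321 and 2320 in Molm13 and from 2768 and 2720 to 4187 and 4034 in THP1. LYZ alone went from 633 and 635 to 996 and 1011 CPM in Molm13 and from 1892 and 1880 to 3156 and 3007 in THP1. The other 12 markers summed to 915 and 921 in shCtrl and 1325 and 1309 in shPRMT9 in Molm13, and to 876 and 840 against 1031 and 1027 in THP1. Of all 13, 12 were tested in each line. In Molm13, 5 were DEGs upward and 0 downward, where 11.4% and 11.3% of all genes tested were. In THP1, 5 were upward and 1 downward, where 3.83% and 2.39% were. The median log2 fold changes were 0.52 and 0.31. None of the 13 had 0 counts in every library of a line. Their part in the result was not tested.

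AIM2 and PYHIN1 were scarce. AIM2 had 2 and 3 counts in Molm13 shCtrl and 9 and 12 in shPRMT9. The ratio of the summed counts, per library total, was 4.21 (exact 95% interval 1.55 to 14.3, counting error only). In THP1, AIM2 had 3 and 6 counts in shCtrl and 15 and 13 in shPRMT9, with a ratio of 3.26 (1.496 to 7.85). The groups did not overlap in either line. PYHIN1, the least studied member of the family, had 4 and 8 counts in Molm13 shCtrl and 31 and 23 in shPRMT9, with a ratio of 4.51 (2.38 to 9.27). In THP1 it had 17 and 9 counts in shCtrl and 34 and 26 in shPRMT9, with a ratio of 2.42 (1.503 to 3.99). Its groups did not overlap either. The filter on low counts removed AIM2 in Molm13, and it kept AIM2 in THP1 and PYHIN1 in both lines only through the shPRMT9 libraries, where they were high. No test of KD within a line is therefore given for them. The ratios, the intervals and the separation of the groups only describe these counts and are not support for a change. Neither gene exceeded 0.477 RPKM in any library, so neither could be a DEG. The AIM2 promoter holds the ISRE letters printed above, and that of PYHIN1 holds none of the motif letters.

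In the SP100 family, SP100, SP110 and SP140L rose in both lines. SP100 is a constitutive PML body protein. It had 1160 and 1041 counts in Molm13 shCtrl and 2000 and 2283 in shPRMT9. Its level went from 55.0 ± 2.55 to 107 ± 0.250 CPM (n = 2 each; log2 fold change 0.96, SE 0.04; edgeR FDR 2.31e-23). THP1 had 1542 and 1658 counts in shCtrl and 2732 and 2550 in shPRMT9 (0.82, SE 0.05; edgeR FDR 1.54e-14). The levels in the 2 lines were close before and after KD.

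SP110, a nuclear body protein tied to macrophage defence against mycobacteria, was a low gene in Molm13 and a well-expressed gene in THP1. It had 62 and 52 counts in Molm13 shCtrl and 138 and 128 in shPRMT9 (log2 fold change 1.22, SE 0.17; edgeR FDR 1.6e-08). Its highest level in Molm13 was 1.08 RPKM, just over the minimum, which no shCtrl library reached. That library is shPRMT9 replicate 1, and without it 5 members in place of 6 were called in Molm13. In THP1 it had 1061 and 1175 counts in shCtrl and 3211 and 3109 in shPRMT9 (1.59, SE 0.05; edgeR FDR 3.27e-21). SP110 is the member with the GAS letters printed above.

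SP140L, a close relative of SP140, had 454 and 350 counts in Molm13 shCtrl and 664 and 753 in shPRMT9 (log2 fold change 0.82, SE 0.07; edgeR FDR 2.82e-13). In THP1 it had 427 and 465 counts in shCtrl and 692 and 795 in shPRMT9 (0.83, SE 0.08; edgeR FDR 1.07e-09). All KD libraries were above all control libraries of their line. SP140, a chromatin reader of lymphoid and macrophage cells, had 7 and 5 counts in Molm13 shCtrl and 4 and 5 in shPRMT9. The ratio of its summed counts was 0.752 (exact 95% interval 0.280 to 1.95). In THP1 it had 5 and 11 counts in shCtrl and 13 and 4 in shPRMT9, and the groups overlapped (log2 fold change 0.18, SE 0.59; edgeR FDR 0.842). A change of SP140 was not detectable at this depth.

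PML, the scaffold of the nuclear bodies, rose by nearly the same fold in both lines. It had 576 and 513 counts in Molm13 shCtrl and 1120 and 1225 in shPRMT9. Its level went from 27.2 ± 1.41 to 58.7 ± 1.64 CPM (n = 2 each; log2 fold change 1.11, SE 0.06; edgeR FDR 2.71e-21). The THP1 counts were 1472 and 1592 in shCtrl and 3112 and 3111 in shPRMT9 (1.12, SE 0.04; edgeR FDR 3.57e-18).

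**Figure D2:**
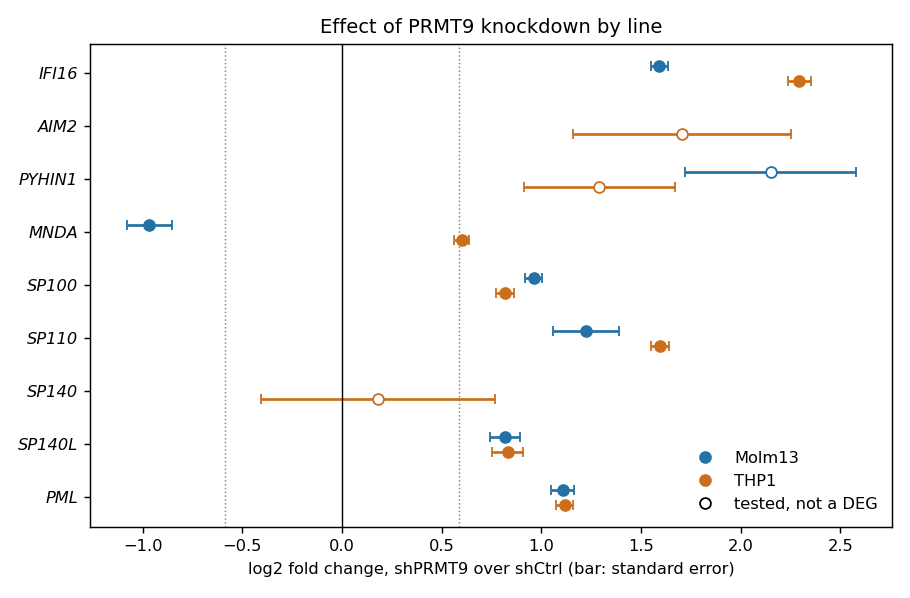
Log2 fold change of shPRMT9 over shCtrl for each member tested in Molm13 (blue) and THP1 (orange), with bars of 1 standard error from 2 libraries per group. Filled points are DEGs, open points were tested but were not DEGs, and dotted lines mark a fold change of 1.5 in either direction. MNDA is the only member on opposite sides of 0, and the wide bars belong to AIM2, PYHIN1 and SP140. AIM2 and PYHIN1 passed the filter only through the shPRMT9 libraries, and their points are a description.

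Without the filter on low counts, the median log2 fold change of all 9 members was 1.09 in Molm13 and 1.10 in THP1, and that of all genes with at least 1 count was -0.01 and 0.02. With a fold limit of 2, 3 members were DEGs upward in each line, IFI16, SP110 and PML, where 4.84% of the genes tested were in Molm13 and 1.91% in THP1. In Molm13, SP110 is among them only through 1 shPRMT9 library above the RPKM minimum.

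Some members share exonic sequence with other genes, and the strand setting of the counting is not given in the sources used here. SP110 and SP140 overlap on opposite strands in 170 exonic bases. An antisense gene, AC009950.1, covers 18.4% of the exonic bases of SP110, but it had only 2 to 15 counts in any library. HMGB1P3, a pseudogene inside SP100, covers 4.31% of its exonic bases and had 0 to 2 counts. Of the distinct 50-base stretches of each member's transcripts, 17.6% for SP110, 13.5% for SP140L and 12.8% for SP140 also occur in another gene, so some of their reads could have been left out or split. IFI16, AIM2 and MNDA shared none.

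The effect of KD was then compared between the lines by the interaction term of 1 edgeR fit over all 8 libraries. It differed for 2 of the 8 members tested, MNDA and IFI16, where 42.2% of the 19288 genes tested differed. The 8 include the scarce AIM2 and PYHIN1, for which no difference was called here or between the controls. The effect on MNDA was higher in THP1 than in Molm13 by 1.58 on the log2 scale (SE 0.11; edgeR FDR 1.41e-22). For IFI16 it was higher in THP1 by 0.71 (SE 0.07; edgeR FDR 2.11e-14). The difference, THP1 minus Molm13, was 0.39 for SP110 (SE 0.17; FDR 0.0616) and -0.13 for SP100 (SE 0.06; FDR 0.0951). The SP100 difference passed under some alternatives, for example -0.18 with library size alone (edgeR FDR 0.0192). For PML and SP140L it was 0.02 (SE 0.07) and 0.03 (SE 0.11), less than its error, and its sign changed with the scaling of the libraries.

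The control cells of the 2 lines also differed. Of the 8 members tested, 4 differed by more than 2-fold between THP1 shCtrl and Molm13 shCtrl, and 46.0% of all genes tested did. SP110 was 14.7-fold higher in THP1 (log2 difference 3.88, SE 0.10; edgeR FDR 5.63e-56) and MNDA was 8.33-fold higher (3.06, SE 0.06; edgeR FDR 1.08e-65). PML was 2.11-fold higher in THP1, and IFI16 was 2.59-fold lower. SP100 and SP140L differed by less, by 0.13 and -0.26 on the log2 scale. The lines come in separate tables, so line and table cannot be told apart here, and this comparison shares its shCtrl libraries with the comparisons above.

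Levels were compared between members per exon length, as RPKM. In Molm13 shCtrl the order was IFI16 (8.89 ± 0.128), MNDA (6.13 ± 0.494), SP100 (4.36 ± 0.202), SP140L (3.55 ± 0.544), PML (2.15 ± 0.111) and SP110 (0.415 ± 0.0390), with n = 2 for each. In THP1 shCtrl it was MNDA (50.9 ± 0.391), SP110 (6.10 ± 0.0880), SP100 (4.75 ± 0.0306), PML (4.54 ± 0.0105), IFI16 (3.42 ± 0.158) and SP140L (2.96 ± 0.00755). Library values of neighbours in these 2 orders did not overlap. After KD, IFI16 was first in Molm13 at 26.8 ± 0.00283 RPKM, and MNDA stayed first in THP1 at 77.2 ± 0.800. SP110 (18.4 ± 0.236) and IFI16 (16.8 ± 0.168) followed in THP1. AIM2, PYHIN1 and SP140 were below 0.5 RPKM in every group, and their order cannot be read at so few counts. The exon lengths sum all transcripts, 12618 bases for SP100 and 12657 for PML, which lowers the RPKM of genes with many isoforms.

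**Figure D3:**
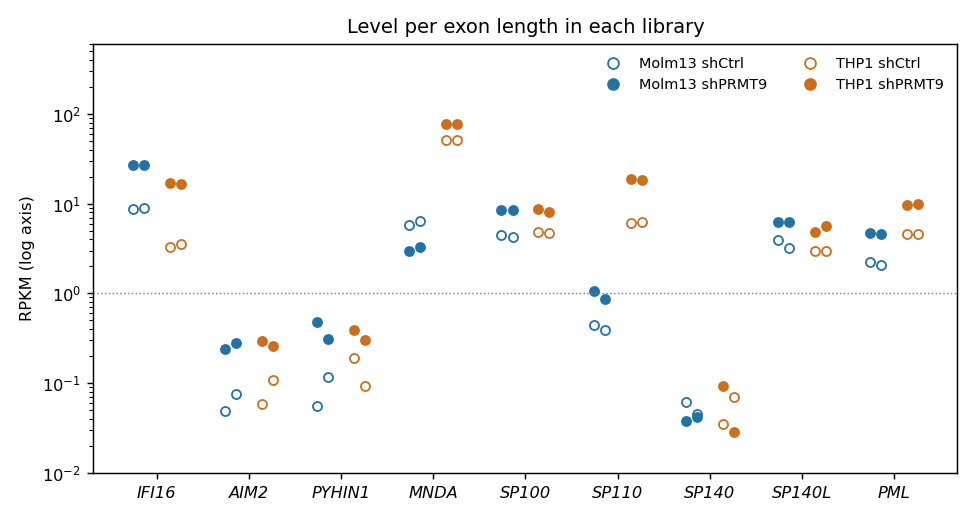
RPKM of each member in each library on a log axis, with open points for shCtrl and filled points for shPRMT9, blue for Molm13 and orange for THP1. The dotted line marks 1 RPKM. MNDA and SP110 separate the lines most, and AIM2, PYHIN1 and SP140 lie below the line in all 8 libraries.

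Other genes around the 3 loci changed in both directions in Molm13. Within 500 kb of the members, 6 of 18 other genes tested were DEGs in Molm13, 2 upward and 4 downward, and 1 of 23 in THP1. Of all genes tested, 11.4% were DEGs upward and 11.3% downward in Molm13, and 3.83% and 2.39% in THP1. Beside the PYHIN genes, the pseudogene EI24P2 had 33 and 28 counts in Molm13 shCtrl and 12 and 13 in shPRMT9 (log2 fold change -1.28, SE 0.34), and RP11-144L1.8 went from 779 and 798 to 403 and 473 (-0.85, SE 0.07). Both fell, as MNDA did in that line, while IFI16 of the same cluster rose and the scarce AIM2 and PYHIN1 had higher counts. They were the only 2 neighbours of the PYHIN genes tested in Molm13. In THP1, 0 of 2 tested neighbours of the PYHIN genes were DEGs. Beside the SP100 family, ITM2C, a membrane protein gene, rose by 0.64 in Molm13, and the pseudogenes COX20P2 (-0.98) and BANF1P3 (-0.71) fell. Beside PML, the semaphorin gene SEMA7A rose by 0.87 in Molm13 and NPTN, which encodes neuroplastin, rose by 0.63 in THP1.

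**Figure D4:**
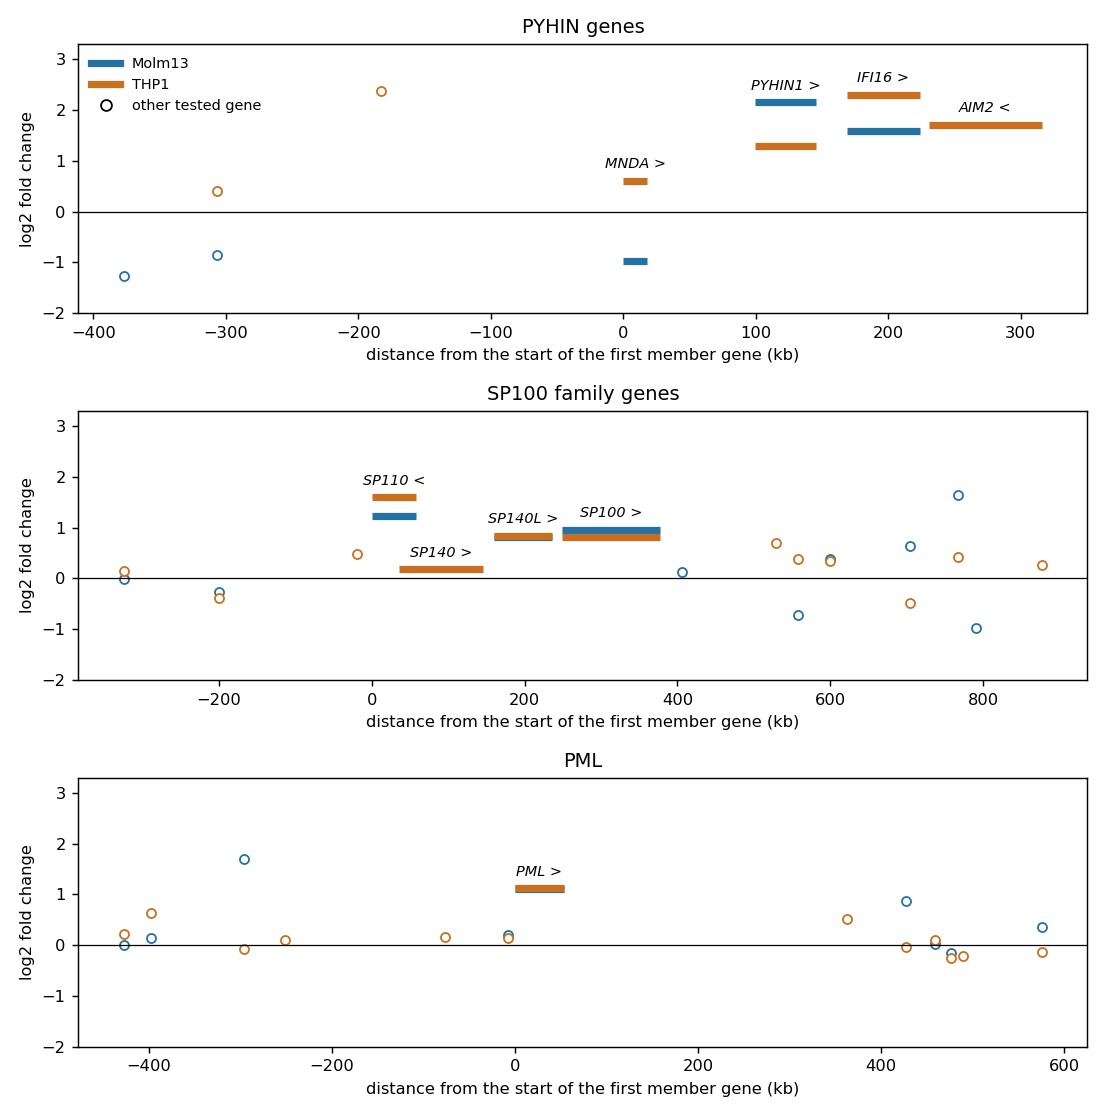
Log2 fold change of shPRMT9 over shCtrl along the 3 loci, with distance in kb from the start of the first member on the horizontal axis. Bars span the members tested, with an arrowhead for the strand, and circles are other tested genes at their midpoint, in blue for Molm13 and orange for THP1. The SP100 family members except SP140, and PML, lie above most of their neighbours in both lines.

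Genes of the same pathways were read from fixed lists. For comparison, 11.4% of all genes tested were DEGs upward and 11.3% downward in Molm13, and 3.83% and 2.39% in THP1. Of 9 transcription factors of interferon signalling, 3 were DEGs upward and 0 downward in Molm13 (median log2 fold change 0.40), and 5 and 0 in THP1 (0.67). IRF7, the master regulator of type I interferon genes, rose by 1.95 in Molm13 and 1.61 in THP1. STAT2, a subunit of the ISRE-binding complex, rose by 1.65 and 1.26. Its partner IRF9 rose by 1.91 in Molm13, and the repressor gene IRF2 rose by 0.72 in THP1.

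Of 21 genes of inflammasomes and pyroptosis, in which AIM2 acts, 19 were tested in Molm13 and 7 were DEGs upward and 0 downward (median 0.80). In THP1, 9 of 20 were DEGs upward and 0 downward (median 0.39). Among all genes tested the shares were 11.4% upward and 11.3% downward in Molm13, and 3.83% and 2.39% in THP1. IL1B, the cytokine that inflammasomes mature, rose by 1.74 in Molm13 and 2.68 in THP1. IL1RN, the antagonist of its receptor, rose by 1.17 and 1.64. MEFV, which encodes the sensor pyrin, rose by 1.47 in Molm13 and 0.82 in THP1. The inflammasome gene NLRC4 rose by 1.41 in THP1 and by 1.63 in Molm13, where it stayed under the RPKM minimum.

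Of 19 genes of cytosolic DNA sensing, the pathway of IFI16, 16 were tested in each line. In Molm13, 2 were DEGs upward and 3 downward (median -0.22), where 11.4% and 11.3% of all genes tested were. In THP1, 2 were upward and 0 downward (median 0.04), where 3.83% and 2.39% were. The kinase gene IKBKE rose in both lines, by 0.63 and 0.67. RNASEH2A, a subunit of the enzyme that removes ribonucleotides from DNA, fell by 0.75 in Molm13, and the helicase gene DHX9 fell by 0.74.

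All 33 genes of PML body partners and the SUMO pathway were tested. In Molm13, 1 was a DEG upward and 4 downward (median -0.12), where 11.4% and 11.3% of all genes tested were. The downward count was thus near the share of all genes. In THP1, 2 were upward and 0 downward (median -0.06), where 3.83% and 2.39% were. CASP8AP2, which encodes the nuclear body protein FLASH, fell by 1.14 in Molm13, and the SUMO protease gene SENP1 fell by 1.08. The helicase gene BLM fell by 1.03 and the SUMO ligase gene PIAS2 by 0.78 there. In THP1, ISG20, an exonuclease gene induced by interferon, rose by 2.13, and the kinase gene HIPK2 rose by 0.92. Of the other SAND domain genes, 3 were tested in each line and 0 were DEGs (median -0.31 in Molm13 and -0.05 in THP1).

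**Figure D5:**
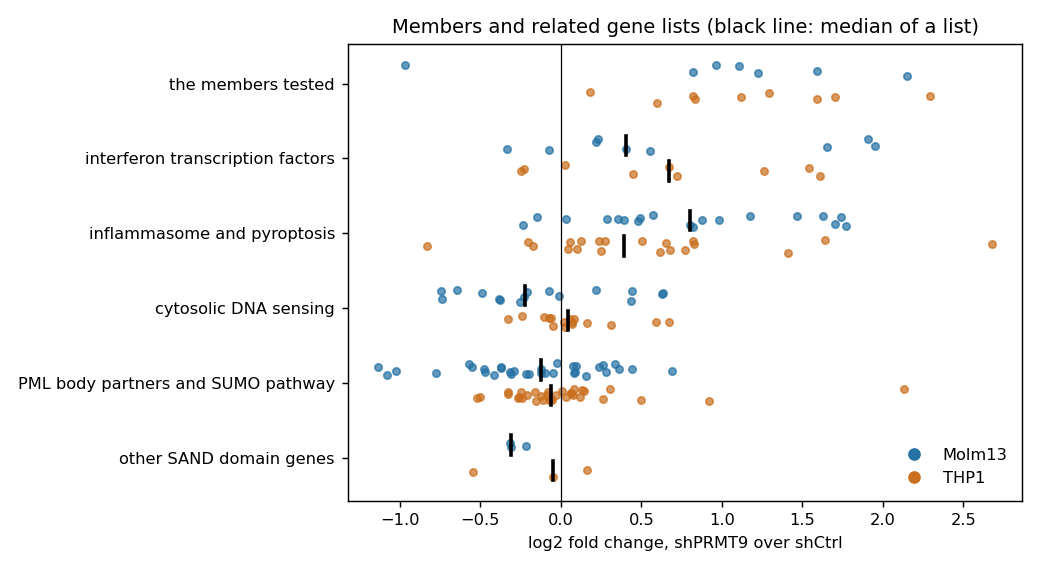
Log2 fold change of every tested gene among the 9 members and in 5 related gene lists, in Molm13 (blue) and THP1 (orange), with a black line at the median of each list. The medians of the interferon transcription factors are 0.40 and 0.67, and those of the PML body partners are -0.12 and -0.06.

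The members fell into different patterns over the 8 libraries. Pearson's r of log2 CPM was 0.95 between IFI16 and SP140L and 0.91 between SP100 and SP140L. It was 0.91 between MNDA and SP110, whose levels differ most between the lines, and -0.47 between IFI16 and MNDA. Of 15257 other genes with a mean of at least 20 counts, those closest to IFI16 were TNFAIP3 (r = 0.998) and SH2B3 (0.996), and SP100 was close to CXCL10 (0.995). MNDA was closest to PDIA3 and AKR1C3 (0.999 each) and SP110 to ZNF366 and ATG9A (0.999 each). SP140L was closest to CSRNP1 (0.994) and PLD2 (0.982), and PML to DUSP3 (0.999) and IFITM1 (0.998). These values describe 8 points that share 2 lines and 2 conditions, so a shared line difference alone gives a high r.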

How the data were processed

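PolyA RNA-seq covered 2 AML lines, Molm13 and THP1, each with 2 shCtrl and 2 shPRMT9 libraries. Libraries were made with a Kapa mRNA HyperPrep kit and sequenced on an Illumina HiSeq system. The submitters' processing notes name TopHat2 2.0.8, HTSeq 0.11.2, edgeR 3.30.3 and hg38. The authors deposited raw read counts per gene, whole numbers without normalization, in 1 table per line.

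Everything further was computed in R 4.3.3 with edgeR 4.0.16. Counts were normalized by TMM and filtered by filterByExpr, and each line was fitted alone. The contrast of shPRMT9 over shCtrl used the quasi-likelihood test, with p-values adjusted over all genes tested (Benjamini-Hochberg). A fit of both lines (19288 genes) gave the difference of the effects and the difference of the controls. Each standard error is the size of the log2 fold change over the root of its F value. CPM and RPKM use TMM library sizes and the exon lengths of the Molm13 table. DEG limits were taken after the study's methods, with the upper fold limit read as above 1.5 and its inverse, 0.667, as the lower limit. Totals of 18720950 to 27356870 counts set the precision. Replicate libraries differed by more than sampling noise (chi-square per gene 1.35 to 2.17). The alternatives were DESeq2 1.42.0, other normalizations, filters, limits and windows, a replicate block and leaving out each library.

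The genes named are the members, PRMT9, up to 4 DEGs per list and line and per locus with the largest change, and the 2 genes most like each member with a mean of at least 20 counts. Some genes that this rule selects are not reported here. Lineage markers outside this rule were named after their values were seen. Members and lists were chosen with earlier results of these data known.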

Additional observations from a re-analysis of the deposited data

Results flagged for a closer look

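For 2 members KD acted differently in the 2 lines, by the interaction test of the edgeR fit over all 8 libraries. That was 2 of the 8 members tested, where 42.2% of the 19288 genes tested differed. MNDA differed by 1.58 on the log2 scale, with lower counts in both Molm13 KD libraries and higher counts in both THP1 KD libraries. IFI16 differed by 0.71, with higher counts in all 4 KD libraries and the larger rise in THP1. With 2 libraries per group, no group was large enough to look for single libraries that stand apart.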

How the results depend on the processing

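The counts of members called (6 in Molm13, 6 in THP1, 2 differing in effect between lines, 4 differing between controls) stayed within 1.5 times of these values under all alternatives except a fold limit of 2, which gave 3 in Molm13 and 3 in THP1. Leaving out 1 library gave 5 to 6 in Molm13, 6 to 6 in THP1, 2 to 3 for the difference of effects and 4 to 4 for the controls. Other genes called within 500 kb were 6 in Molm13 and 1 in THP1, against 1 and 0 within 250 kb and 11 and 2 within 1000 kb, since the window sets how many genes are tested.

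With the replicate number as a block, 6, 6, 2 and 4 members were called, so it changed no member's call. Over all genes, DEGs went from 3744 to 3711 in Molm13 and from 1013 to 1019 in THP1. Same-numbered libraries did not deviate together over the genes (r = -0.04 in Molm13 and -0.05 in THP1). Whether they share a culture or a batch cannot be told from this correlation.

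Signs changed only among values within their error. The difference of effects for PML became -0.0225 with library size alone, -0.0031 with RLE size factors, -0.0182 with a mean CPM of at least 1 and -0.0038 in DESeq2, and ran from -0.0628 to 0.0345 without single libraries. For SP140L it became -0.0181 with library size alone and -0.0139 with the CPM filter, and ran from -0.1717 to 0.1338 without single libraries. Without single libraries, AIM2 ran from -0.6976 to 0.1676 for the difference of effects and from -0.0773 to 0.7863 between controls, and SP140 in THP1 from -0.872 to 0.7814. Where a group is left with 1 library, that library is assumed to vary like the others. The SP100 difference of effects gained a call with library size alone, RLE size factors (FDR 0.0412) and the CPM filter (FDR 0.0187), and without Molm13 shCtrl replicate 1 (-0.21) or THP1 shPRMT9 replicate 1 (-0.20). That of SP110 gained one without Molm13 shPRMT9 replicate 1 (0.49, FDR 0.0353). The SP140L control difference lost its call without Molm13 shCtrl replicate 1 (-0.09), and that of SP100 lost it in DESeq2 (0.12), without the count filter (0.11) and without Molm13 shCtrl replicate 2 (0.09). The cause was not tested.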

Other observations

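ITM2C, beside the SP100 family, had 2053 and 2064 counts in THP1 shCtrl and 1344 and 1412 in shPRMT9 (-0.49, SE 0.05), opposite to its rise in Molm13. Its effect, THP1 minus Molm13, differed by -1.11 (SE 0.06; edgeR FDR 4.0e-31) in the fit of both lines. PAX5, a B cell transcription factor, had 741 to 866 counts in Molm13, and in THP1 it rose from 64 and 86 counts to 298 and 276 (2.03, SE 0.13; edgeR FDR 7.37e-13). The 8 HOXB genes looked at summed to 0.245 to 0.535 CPM in Molm13 and 13.5 to 15.6 CPM in THP1.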
